A study of Mus musculus with 30 samples.

Results

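The centromere-near regions are the ATAC-seq peaks of the 19 mouse autosomes whose midpoint lay within 10 Mb of the lowest peak start of their chromosome, taken over 4 deposited peak lists. They numbered 15978 of the 185395 peaks listed in all. Of these, 5617 were in the list of primitive type A spermatogonia (PriSG-A), 6911 in that of type A spermatogonia (SG-A), 3153 in that of pachytene spermatocytes (pacSC) and 297 in that of round spermatids (rST). ATAC-seq cuts accessible DNA with the transposase Tn5, so that a listed peak, called a region here, marks chromatin that was open. The lists summarise 10 libraries from testes of C57BL/6 mice without any named genetic change or treatment. PriSG-A came from 3 libraries at day 6 after birth, SG-A from 3 at day 8, and pacSC and rST from 2 each of adult animals. Each stage has 1 list for all its libraries, so that the spread between libraries cannot be measured. The lists hold no expression values, and the cell type labels were not checked against marker expression.

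Mouse autosomes are telocentric. Their centromere lies at the low-coordinate end, where long arrays of satellite repeats form pericentromeric heterochromatin, most of which the genome assembly does not contain. The listed sequence therefore begins beside that heterochromatin, at 2999936 on chromosome 9 at the lowest and 3134994 on chromosome 15 at the highest. Spermatogonia divide by mitosis, pachytene spermatocytes hold paired and recombining chromosomes, and round spermatids are haploid cells that later exchange histones for transition proteins and protamines.

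Gene names could be placed on 4 of the 19 chromosome ends. The submitters' processing notes name the build mm10, for which a RefSeq table of gene starts on GRCm38.p6 was available for 18 autosomes. Summits of SG-A regions with a −log10 q of 5 or more lay within 1000 bp of a gene start in 76.3% of 38 cases on chromosome 5 (95% Wilson interval 60.8 to 87.0). The share was 59.3% of 59 on chromosome 8 (46.6 to 70.9), 64.3% of 28 on chromosome 9 (45.8 to 79.3) and 59.5% of 74 on chromosome 16 (48.1 to 69.9). With the same summits moved by 10 multiples of 37 kb, the shares were 1.84, 5.42, 1.43 and 4.73%. File and table positions therefore coincide in these 4 zones. In the other 14 zones the share ran from 0 to 40.4%, no gene was named there, and positions are those of the files. Outside the zones the positions coincided on 1 chromosome only, chromosome 16. On the rest of chromosomes 5, 8 and 9 the shares were 3.69, 3.66 and 4.79%, against 2.99, 2.22 and 4.24% for moved summits. The files as a whole thus did not coincide with the table, and which build they follow is unresolved.

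Promoters picked as examples of stage patterns are printed first. Each is given as the 250 bases before the gene start from the RefSeq table (GRCm38.p6, 5′ to 3′ on the gene's strand). Every CG dinucleotide is in capitals, because the patterns are compared by their CG content. The first 3 genes had a region at their start in pacSC alone, the fourth in rST alone, and the last in all 4 lists. The most common pattern, listed in PriSG-A, SG-A and pacSC and not in rST, has no example here. They are Tmbim7 at chr5:3656754-3657003 on the plus strand, Rpl39l at chr16:10169978-10170227 (plus), Tex47 at chr5:7303914-7304163 (plus), Tnp2 at chr16:10788656-10788905 (minus) and Dbf4 at chr5:8422717-8422966 (minus).
Tmbim7: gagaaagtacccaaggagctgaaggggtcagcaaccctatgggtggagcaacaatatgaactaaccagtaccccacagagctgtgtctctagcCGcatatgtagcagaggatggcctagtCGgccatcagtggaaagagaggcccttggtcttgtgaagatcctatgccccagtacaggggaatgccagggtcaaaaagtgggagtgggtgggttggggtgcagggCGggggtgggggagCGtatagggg
Rpl39l: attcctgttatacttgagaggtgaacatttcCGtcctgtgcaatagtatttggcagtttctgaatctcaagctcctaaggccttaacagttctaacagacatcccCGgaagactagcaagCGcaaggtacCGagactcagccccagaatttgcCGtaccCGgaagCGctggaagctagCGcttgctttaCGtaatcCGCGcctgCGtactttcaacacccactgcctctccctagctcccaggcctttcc
Tex47: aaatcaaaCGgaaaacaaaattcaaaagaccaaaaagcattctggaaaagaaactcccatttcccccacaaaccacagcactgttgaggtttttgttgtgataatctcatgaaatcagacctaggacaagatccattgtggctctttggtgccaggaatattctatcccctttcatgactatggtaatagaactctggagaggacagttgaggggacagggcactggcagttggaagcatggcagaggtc
Tnp2: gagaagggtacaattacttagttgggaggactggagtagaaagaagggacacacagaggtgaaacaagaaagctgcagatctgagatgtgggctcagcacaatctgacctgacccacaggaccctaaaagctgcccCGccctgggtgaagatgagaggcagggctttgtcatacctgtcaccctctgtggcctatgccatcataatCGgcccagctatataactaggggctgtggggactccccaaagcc
Dbf4: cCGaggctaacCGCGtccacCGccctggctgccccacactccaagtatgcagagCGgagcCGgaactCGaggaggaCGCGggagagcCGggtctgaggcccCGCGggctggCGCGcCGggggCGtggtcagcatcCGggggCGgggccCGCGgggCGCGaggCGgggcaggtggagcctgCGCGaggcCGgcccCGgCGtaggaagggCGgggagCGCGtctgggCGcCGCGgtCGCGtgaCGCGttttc
The stretch held 4 CG dinucleotides for Tmbim7, 12 for Rpl39l, 1 for Tex47, 2 for Tnp2 and 38 for Dbf4. The deposited region covered 250 of the printed bases at Tmbim7 (pacSC), 81 at Rpl39l (pacSC), 127 at Tex47 (pacSC) and 223 at Dbf4 (rST). At Tnp2 the rST region covered 0 of them, since it lay on the transcribed side of the start.

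Gene starts in the 4 zones were mostly open from spermatogonia to pachytene. The zones held 201 protein-coding genes of the table, and a start was called listed where a region overlapped the 300-base window from 250 bases before to 50 after it. PriSG-A listed 141 of them (70.1%, 95% interval 63.5 to 76.0), SG-A 143 (71.1%, 64.5 to 77.0), pacSC 127 (63.2%, 56.3 to 69.5) and rST 20 (9.95%, 6.53 to 14.9). Neighbouring genes can share a region, as Dbf4 and Slc25a40 do. Each gene was counted, so that intervals for gene starts treat such genes as independent. The rest of chromosome 16, the other stretch where positions coincided (58.8% of 447 summits), gave 54.3, 58.3, 43.9 and 14.7% of 503 gene starts. The pacSC list thus held nearly as many gene starts as the SG-A list, while it held 548 regions in these 4 zones against 1293 in SG-A. Regions at gene starts made up 12.6% of PriSG-A regions in these zones (10.7 to 14.7), 10.4% of SG-A (8.89 to 12.2), 22.3% of pacSC (18.98 to 25.9) and 31.5% of rST (20.7 to 44.7, 17 of 54 regions). In the first 3 lists regions at gene starts were wider than the others. Their median width was 1126.5 bp in PriSG-A against 139 bp away from gene starts, 1485 against 118 bp in SG-A and 830 against 131.5 bp in pacSC. In rST it was 188 against 179 bp.

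The largest group, 100 of 201 genes (49.8%, 42.9 to 56.6), was listed in PriSG-A, SG-A and pacSC and not in rST. The deposited signal value, computed by the authors and larger for wider peaks, ranks regions within a list and is not comparable between lists. The lowest signal value listed was 20.0. The strongest pacSC region of this group, at 5420, covered the shared start of Krit1 and Ankib1 on chromosome 5. It was followed by Irs2, an adaptor of insulin signalling on chromosome 8 (4677), and by Socs1, an inhibitor of cytokine signalling on chromosome 16 (4653). The group also held Crebbp, a histone acetyltransferase and transcriptional coactivator, with signal values of 2869 (PriSG-A), 6836 (SG-A) and 3957 (pacSC). Median signal values of the group were 2237, 4904 and 1501. On the rest of chromosome 16 this pattern made up 27.2% (23.5 to 31.3) of gene starts.

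All 4 lists held 19 gene starts (9.45%, 6.14 to 14.3), against 14.7% on the rest of chromosome 16. The highest rST signal value among them, 392, covered the shared start of Dbf4, the activating subunit of the kinase that fires replication origins, and Slc25a40, a mitochondrial carrier. That region had signal values of 4568 (PriSG-A), 8980 (SG-A) and 4663 (pacSC). Dmtf1, a Myb-like transcription factor, followed in rST at 377, and Tmem123 at 262. Other members were Elavl1, an RNA-stabilising protein, with 55.9 in rST and 3821 in pacSC, Gspt1, a translation termination factor, with 40.9 and 3311, and Ing1, a chromatin-binding growth regulator, with 79.4 and 3059. Regions at these starts had a median width of 192 bp in rST and 1281 bp in pacSC. Starts that rST listed had a median pacSC signal value of 3821, against 1501 for those of the 3 earlier lists that rST did not hold.

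Starts listed in both spermatogonial lists and in neither later list numbered 18 (8.96%, 5.74 to 13.7), against 12.1% (9.56 to 15.3) on the rest of chromosome 16. They included Pgr, the progesterone receptor, with 4059 in PriSG-A and 5943 in SG-A, and Gucy1a2, a subunit of the nitric oxide receptor guanylate cyclase, with 6199 and 8184. Col4a1 and Col4a2, which encode basement membrane collagens from a shared promoter, had 601 and 4367. The cation channel gene Trpc6 had 3389 and 2958, and the growth factor gene Pdgfd 1833 and 2419. Several of these genes are known from somatic cells, whose share in the samples was not tested. The nearest pacSC region was 321496 bp from the Trpc6 window and 117778 bp from that of Col4a1, but 581 bp from that of Gucy1a2 and 1941 bp from that of Pgr.

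Starts listed in pacSC alone numbered 6 of 201 (2.99%, 1.38 to 6.36), against 0.795% (4 of 503) on the rest of chromosome 16 (95% interval 0.310 to 2.03), and the intervals overlap. Rpl39l, a testis-enriched copy of a ribosomal protein gene, had a pacSC region at 10170147 to 10170505 on chromosome 16 with a signal value of 626, and the nearest spermatogonial region was 13094 bp away. Tmbim7, of the transmembrane BAX inhibitor motif family, had the strongest, at 3656503 to 3657253 on chromosome 5 with 979, and the nearest spermatogonial region was 5882 bp away. Tex47, a testis-expressed gene, had 284 at 7304037 to 7304213 on chromosome 5, with the nearest spermatogonial region 28839 bp away. The pacSC regions at these 3 starts stayed listed with lists of equal length. The absence of these starts from the other lists was fixed in advance there, since that setting only shortens lists. Septin12, a septin of the sperm tail, had 176 at 4997850 to 4998013 on chromosome 16. Speer1, from a family of closely related copies in which reads can be misplaced, had 58.2, and 4933402N22Rik 113 with a PriSG-A region 284 bp away. With lists cut to the length of the rST list, 14 starts were in pacSC alone and 3 of them were among these 6.

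The zone of chromosome 16 holds the cluster of genes for the proteins that pack sperm DNA. Tnp2, which encodes a transition protein of condensing spermatids, was the only one of 201 starts listed in rST alone. Its region lay at 10788475 to 10788643 with a signal value of 62.5, rank 3616 of 6459 in the rST list. The nearest pacSC region was 996 bp from the Tnp2 window, the nearest SG-A region 1672 bp and the nearest PriSG-A region 1720 bp. The protamine genes Prm1, Prm2 and Prm3 in the same cluster were in no list. The nearest rST regions were 8130, 3412 and 2221 bp from their windows. That is 1 of 4 genes listed in rST, where 9.95% of all 201 starts were, and nothing particular to these genes can be read from it. Next to them Socs1 was listed at both spermatogonial stages and in pacSC, and not in rST.

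Starts in a single spermatogonial list were weak beside those in both and in no later list. Median signal values were 68.4 against 1249 in PriSG-A and 152 against 3043 in SG-A. PriSG-A alone held 4, of Casp1 (signal value 176), Olfr15 (114), Tnfsf13b (22.3) and Cd209b (21.1). The nearest SG-A region was 75 bp from the Olfr15 window and 138 bp from that of Tnfsf13b. Casp4 and Casp12, which neighbour Casp1 on chromosome 9, were listed in PriSG-A (332 and 493) and SG-A (116 and 128) and in no later list. SG-A alone held Tgfbr3l (368), Rbfox1 (273), Tekt5 (32.4) and Smim22 (22.3). Tnfsf13b, Cd209b and Smim22 stood close to the lowest signal value listed, 20.0, so that their absence from other lists says little. No list held 47 starts, or 23.4% (18.1 to 29.7), against 40.8% (36.5 to 45.1) on the rest of chromosome 16. They included all 10 matrix metalloproteinase genes of a cluster on chromosome 9 and 6 of 7 genes of the CD209 group of lectins on chromosome 8.

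**Figure D1:**
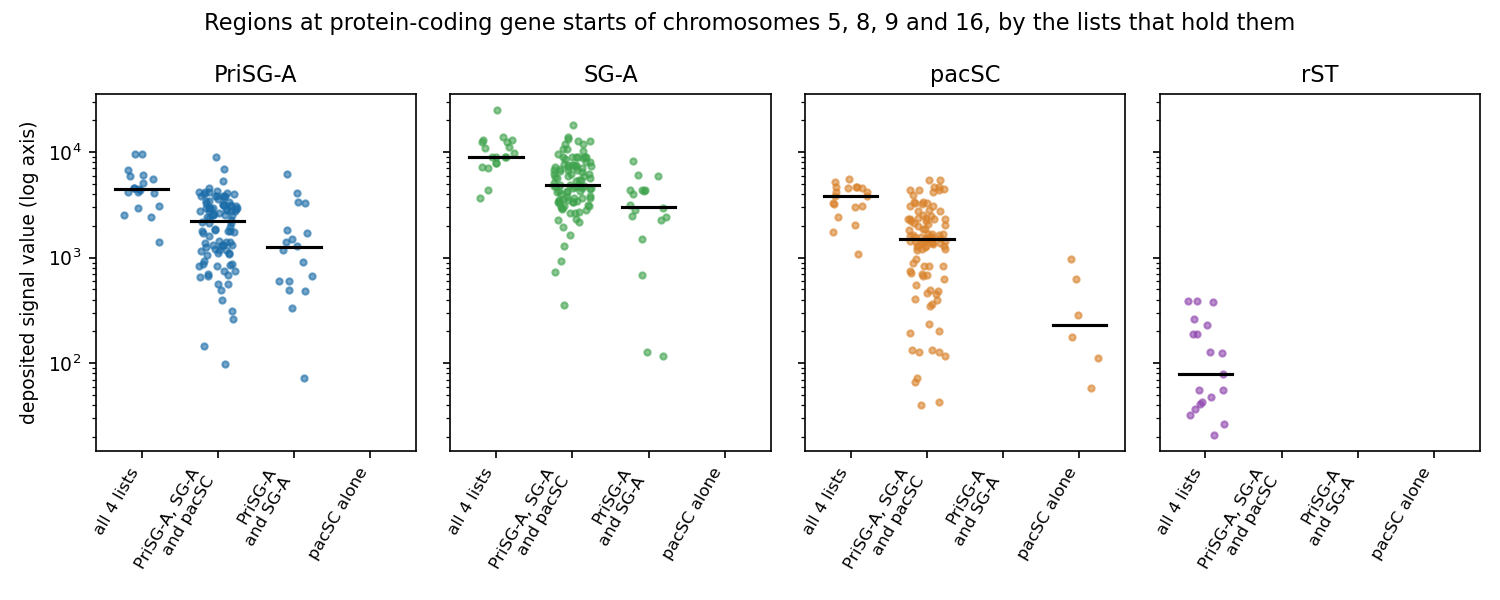
Deposited signal value (log axis) of the region at each protein-coding gene start of the first 10 Mb of chromosomes 5, 8, 9 and 16, one panel per stage, grouped by which lists hold the start. Points are genes and black lines medians; the 19 starts in all 4 lists had the highest medians in PriSG-A, SG-A and pacSC, and the 6 starts of pacSC alone had a median of 230 in pacSC.

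CG content of the 300-base windows differed between the patterns. The median number of CG dinucleotides was 27 for starts in all 4 lists (28 windows), 22 for those in the first 3 (128 windows) and 12 for those in both spermatogonial lists (19 windows). It was 1.5 for starts in pacSC alone (8 windows, range 1 to 17), 4.5 for SG-A alone, 3 for PriSG-A alone and 3 for starts in no list (55 windows). All 21263 protein-coding windows of the table had a median of 13. A search on both strands for the cAMP response element TGACGTCA found it in 0 of 8 windows of pacSC-alone starts, in 0 of 28 windows of starts in all 4 lists and in 0 of 19 of starts in both spermatogonial lists. It was in 11 of 128 windows of the largest group (8.59%), against 4.33% of the windows in the 4 zones and 2.23% of all windows. The 4.33% stands for the same 11 windows. The 128 windows belong to 100 genes and can overlap, so that 1 copy can count more than once. The element itself holds a CG, and windows were not matched for CG content. The MYB site, searched as CAACNG or TAACNG, was in 6 of 8 windows of pacSC-alone starts, 56.4% of windows in no list and 47.6% of all windows. These are letters in a window, not sites of binding.

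Summed over the 19 chromosome ends, the first 1 Mb was denser than the autosomal mean in every list. The first 1 Mb held 989 PriSG-A regions, which is 2.31 times the mean density of that list over all autosomes. SG-A held 1029 there (1.52 times), pacSC 475 (1.83 times) and rST 80 (1.63 times). In the third 1 Mb bin the values were 1.35, 1.16, 1.70 and 0.408. In the fifth they were 0.974, 0.676, 0.807 and 0.612. The 3 longer lists thus stood above their mean for the first 4 Mb, whereas rST did so in the first 1 Mb only within the zone. Just inside the 10 Mb limit the values were 1.29, 0.981, 0.780 and 0.530, and just outside it 1.49, 1.07, 0.938 and 0.693. In that outer bin the fullest chromosome held 191 of 640 PriSG-A regions and 148 of 721 SG-A regions. Of the 80 rST regions of the first 1 Mb, 27 were pieces of 5 very wide loci on chromosomes 9 and 11. Without them 53 remained, 1.08 times the mean.

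**Figure D2:**
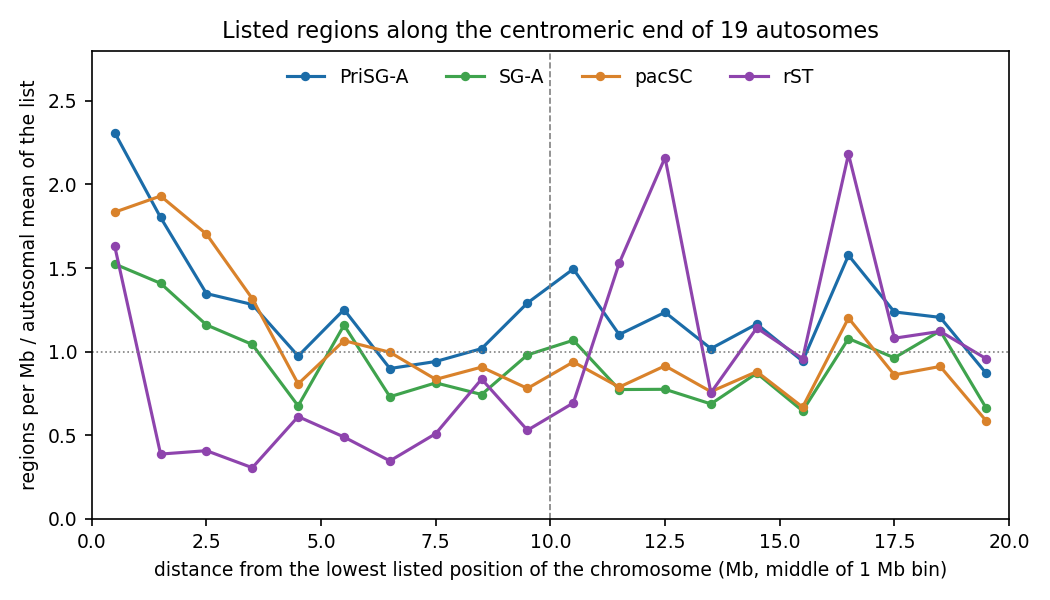
Regions per Mb divided by the mean density of the same list over all autosomes, in 1 Mb bins from the lowest listed position of each chromosome, summed over 19 autosomes. The dashed line marks the 10 Mb limit and the dotted line the mean; PriSG-A starts at 2.31, while rST falls from 1.63 in the first bin to 0.387 in the second.

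Over the whole 10 Mb the stages differed in how the zone compared with the rest of the autosomes. PriSG-A had 29.6 regions per Mb in the zone against 21.9 elsewhere, a ratio of 1.35 (95% Poisson interval 1.31 to 1.39). SG-A had 36.4 against 35.5, a ratio of 1.03 (1.00 to 1.05), and pacSC 16.6 against 13.4, a ratio of 1.24 (1.20 to 1.29). In rST the zone was poorer, at 1.56 against 2.67 per Mb, a ratio of 0.586 (0.521 to 0.658). It was 0.920 when the zone was widened to 20 Mb. In the wider zone the fullest chromosome held 71 of 106 rST regions at 12 to 13 Mb. At 16 to 17 Mb the fullest chromosome held 75 of 107. Intervals cover counting error only and treat neighbouring regions as independent. Without chromosome 19, which held the most zone regions, the SG-A ratio was 0.962. Counting only regions whose −log10 q was 5 or more, the pacSC ratio was 2.09 and the rST ratio 2.60. That rST value rests on 32 zone regions, of which 16 lay in 5 very wide loci on chromosomes 9 and 11. Without those loci it was 1.30 (0.776 to 2.18).

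Regions of the zone were also stronger than elsewhere in pacSC and rST. In pacSC 17.0% of zone regions had a −log10 q of 5 or more (15.7 to 18.4), against 10.1% on the rest of the autosomes (9.75 to 10.4). In rST the shares were 10.8% (7.74 to 14.8) and 2.43% (2.06 to 2.85). Without the very wide loci and their pieces the rST zone share was 5.93% (3.68 to 9.41), from 16 of 270 regions. The shares were in PriSG-A 10.5% (9.73 to 11.3) and 9.27% (9.02 to 9.53). SG-A went the other way, with 17.1% (16.3 to 18.0) and 18.3% (18.0 to 18.6). Median widths in the zone were 191, 167, 200 and 213 bp in stage order (PriSG-A, SG-A, pacSC, rST), against 209, 181, 186 and 182 bp elsewhere. The zone median was thus below that of the rest in spermatogonia and above it at the later stages. In rST the median was 365.5 bp in the first 1 Mb, which holds the pieces of the very wide loci. It ran from 113 to 242 bp in the later bins of the zone. In pacSC it was 252 and 224 bp in the first 2 bins and 155.5 to 217 bp in the later ones. The rST median without those pieces was not computed. Listed regions covered 1.21, 1.58, 0.719 and 0.0935% of the zone in that order.

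Chromosome ends differed among themselves. In PriSG-A the zone was denser than the rest of its chromosome on 18 of 19 chromosomes, with the interval above 1 on 17, and chromosome 17 was the exception at 0.773 (0.674 to 0.885). In SG-A only 7 of 19 were denser, led by chromosome 19 at 2.33 (2.14 to 2.55), and chromosome 9 was lowest at 0.628 (0.550 to 0.719). In pacSC 14 of 19 were denser, led by chromosome 2 at 1.96 (1.71 to 2.24), and chromosome 9 was again lowest at 0.454 (0.355 to 0.581). In rST 2 of 19 were denser, led by chromosome 11 at 1.67 (1.12 to 2.48), and chromosome 3 was lowest at 0.239 (0.119 to 0.481). Chromosomes 11 and 9, the pair above 1, were so only with the pieces of 5 very wide loci counted. Without these pieces chromosome 11 was at 0.952 (0.571 to 1.59), chromosome 9 at 0.167 (0.0535 to 0.524), and 0 of 19 were denser. When each chromosome was cut into 10 Mb windows, the centromere-near one ranked first on 7 chromosomes in pacSC, on 3 in PriSG-A, on 1 in SG-A and on 0 in rST.

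**Figure D3:**
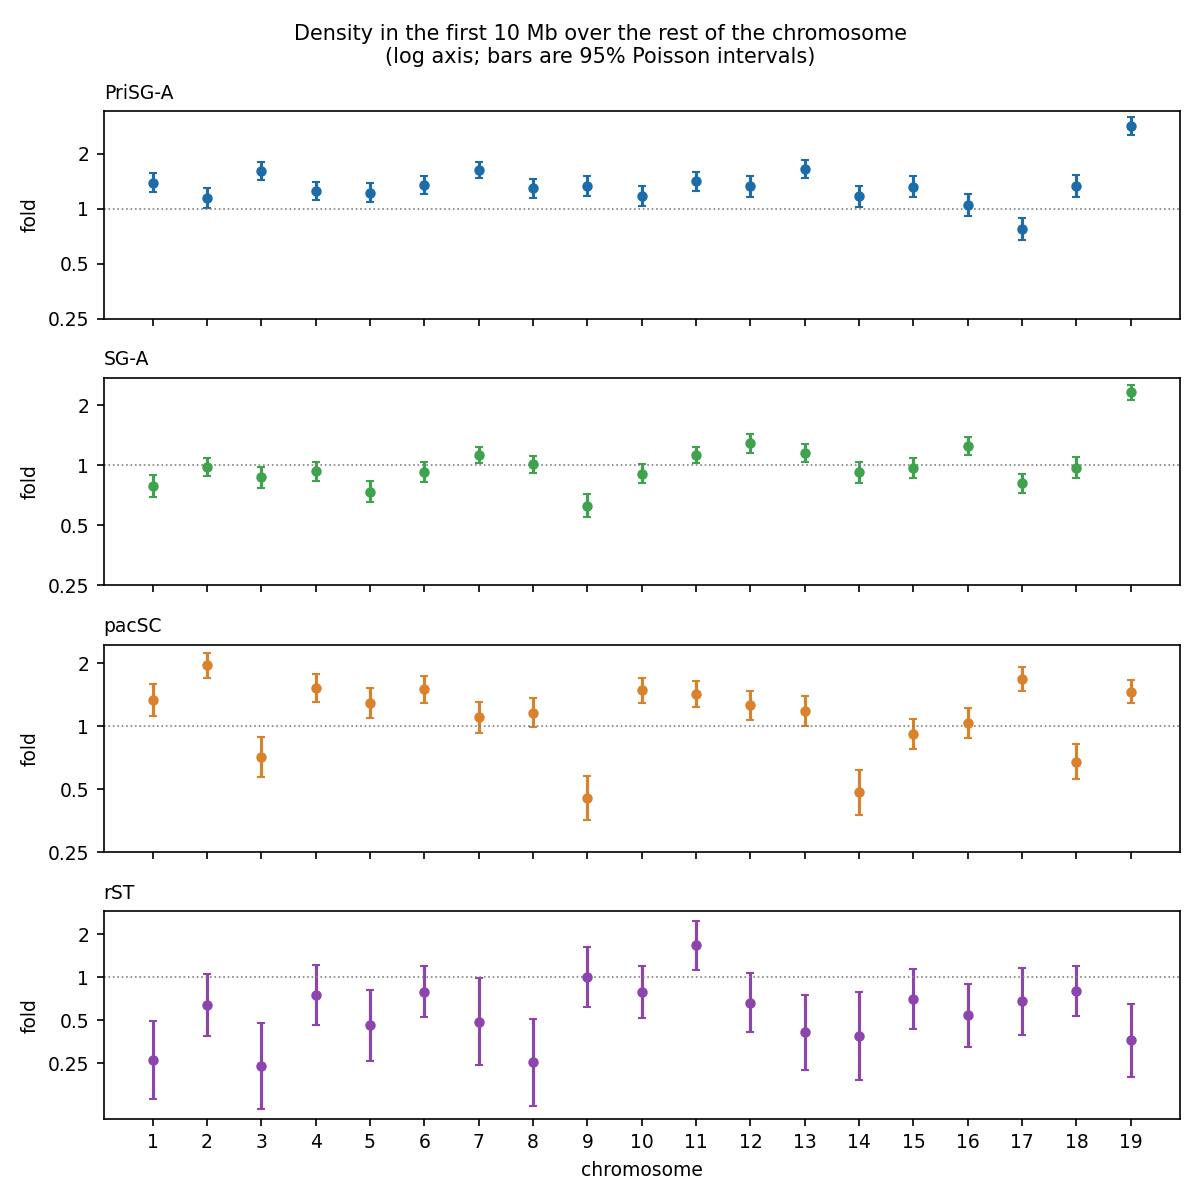
Density of regions in the first 10 Mb divided by that on the rest of the same chromosome (log axis), for 19 autosomes and one panel per stage, with 95% Poisson intervals. In PriSG-A 18 of 19 chromosomes lie above 1, in rST 2 of 19 do.

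By number of regions, chromosome 19 led in PriSG-A (505), SG-A (759) and pacSC (298), against medians over chromosomes of 279, 364 and 166. The fewest were on chromosome 16 in PriSG-A (220), chromosome 9 in SG-A (226) and chromosome 14 in pacSC (64). In rST chromosome 11 led with 28 and chromosome 18 followed with 27, against a median of 16. Of the 28, 12 were pieces of very wide loci, and without them chromosome 11 had 16 and chromosome 18 led. The spread between chromosomes was 2.30-fold in PriSG-A, 3.36-fold in SG-A and 4.66-fold in pacSC. Chromosome 19 thus carried the busiest centromeric end up to and including pachytene, and 12 regions in rST.

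The 190 bins of 1 Mb showed where those numbers came from. In spermatogonia the fullest bins were chr7:4106727-5106726 (124 PriSG-A and 144 SG-A regions), chr13:12007700-13007699 (118 and 125) and chr19:5099060-6099059 (87 and 146). In pacSC these bins held 47, 10 and 57 regions, and in rST 1, 0 and 2. In pacSC the bin on chromosome 13 was thus below the median of 13 regions per bin. In pacSC the fullest bins were chr17:5004497-6004496 (70 regions), chr11:3000138-4000137 (63) and chr19:4099060-5099059 (63). In rST they were chr11:3000138-4000137 (20), chr9:2999936-3999935 (15) and chr10:7012515-8012514 (10). Pieces of very wide loci made up 12 of the 20 regions in the first of these and all 15 in the second. Medians per bin were 26, 30, 13 and 1 in stage order (PriSG-A, SG-A, pacSC, rST), and 76 bins held no rST region.

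A few bins had most of their regions in pachytene. Over the zone pacSC made up 19.7% of the regions of the 4 lists. On chr17:4004497-5004496 it made up 56.5%, with 52 regions, where the other lists had 17, 23 and 0 in stage order. On chr10:9012515-10012514 it made up 53.4%, with 31 against 14, 13 and 0. These are bins with 20 or more pacSC regions. Of the 5 such bins with the highest pacSC share, 3 lay on chromosome 17, within 4004497 to 8004496, and the fifth was chr6:6000366-7000365 (37.4%). Among bins with fewer, chr17:11004497-12004496 had a higher share, at 58.6%. In all, pacSC exceeded SG-A in 19 of 190 bins, or 10.0%, close to 11.8% of the 2216 whole bins outside the zone. PriSG-A exceeded SG-A in 71 of 190 bins (37.4%) against 463 of 2216 (20.9%) elsewhere.

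**Figure D4:**
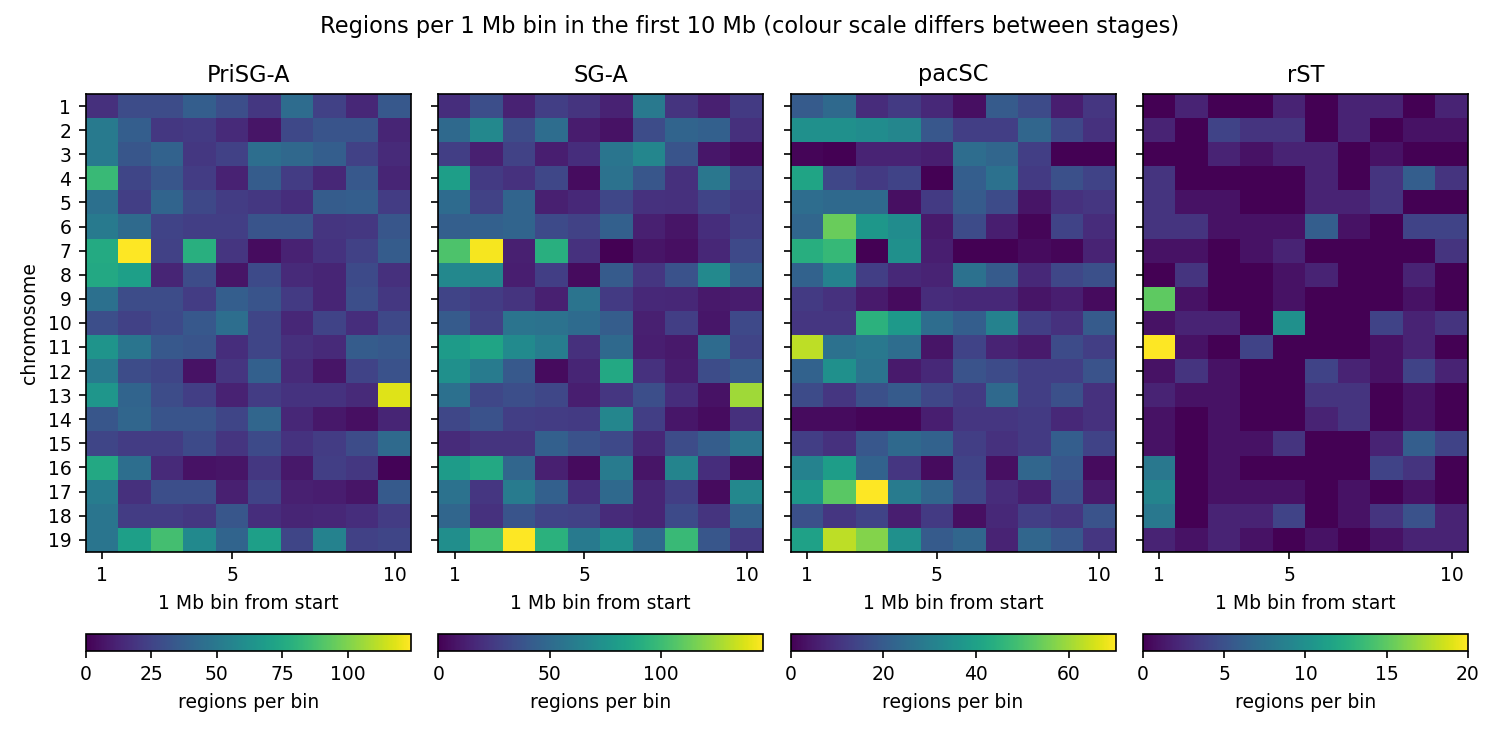
Number of regions in each 1 Mb bin of the first 10 Mb, by chromosome (rows) and stage (panels), with a separate colour scale per stage. The fullest bins are on chromosomes 7, 13 and 19 in spermatogonia, on chromosomes 17, 11 and 19 in pacSC, and on chromosomes 11, 9 and 10 in rST, where the fullest bin held 20 regions.

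Between day 6 and day 8 the number of listed regions grew less in the zone than on the rest of the autosomes, and a smaller share of the early regions was listed again. SG-A held 1.23 times as many zone regions as PriSG-A, against 1.62 times elsewhere, and the zone ratio was below that of the rest on 17 of 19 chromosomes. Of PriSG-A zone regions 3573 of 5617, or 63.6% (95% Wilson interval 62.3 to 64.9), were listed again in SG-A. Over all autosomes the share was 71.7%, and outside the zone 72.7% (72.3 to 73.0). The lower share held above the median −log10 q of the PriSG-A list, at 82.5% against 89.0%, and below it, at 41.9% against 53.3%. By chromosome it ran from 40.5% on chromosome 9 to 87.5% on chromosome 19. Newly listed regions made up 3703 of 6911 SG-A zone regions, or 53.6% (52.4 to 54.8), against 62.2% over all autosomes, and the zone share was below that of the rest on all 19 chromosomes. Among regions joined over the 4 lists, PriSG-A alone held 19.4% of 9995 in the zone (18.7 to 20.2) and 12.3% outside it (12.1 to 12.5). With lists cut to equal length the newly listed share was 13.03%, and where each region had to cover 50% of the other, 31.0% were listed again. These shares were computed for the zone only, so the comparison with the rest was not made at these settings.

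The regions of PriSG-A not listed again were led by chr10:7117425-7118122, with a signal value of 1075, and by chr13:3085480-3086390 with 771. The third was chr7:11065885-11066474 with 648. All 3 were in PriSG-A alone, and the nearest SG-A regions were 6503, 34685 and 13568 bp away. The strongest newly listed SG-A regions were chr17:6423075-6424301 (1879), chr19:5406402-5407496 (1724) and chr19:7256336-7257321 (1639). The second of these was also in pacSC, and the others in SG-A alone. These turnover regions were weak beside the strongest zone regions, the very wide peaks apart. The strongest of those had 30173 in PriSG-A and 42327 in SG-A, both on chromosome 10, 4.22 Mb from the zone start, where all 4 lists had a region. Next in PriSG-A came chr11:3049424-3051705 (21681) and chr18:7319690-7323731 (20254), and in SG-A chr17:3081266-3085093 (37280) and chr18:7319701-7324639 (29482). In pacSC the order was led by chr9:3005624-3008932 (24697), itself a piece of a very wide locus, then chr11:3049428-3051705 (15869) and chr17:3081104-3083251 (13219). The first 3 in rST were all pieces of that same locus, with 16678, 14136 and 11716. All 4 lists held each of these regions.

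From SG-A to pacSC the zone was listed again more often than the rest. Of SG-A zone regions 1438 of 6911, or 20.8% (19.9 to 21.8), were in pacSC, against 16.7% over all autosomes and 16.3% (16.1 to 16.6) outside the zone. The difference held above the median −log10 q of the list, at 36.0% (34.4 to 37.6) against 28.6% (28.1 to 29.0), and below it, at 6.42% (5.66 to 7.28) against 3.94% (3.75 to 4.13). The zone share was above that of the rest on 15 of 19 chromosomes, and it ran from 9.49% on chromosome 14 to 26.4% on chromosome 4. Newly listed regions made up 1482 of 3153 pacSC zone regions, or 47.0% (45.3 to 48.7), against 46.6% over all autosomes, a difference within counting error. By chromosome this share ranged from 19.01% on chromosome 7 to 65.3% on chromosome 6. The near-equal totals hid differences in both directions, with the zone share above that of the rest on 14 of 19 chromosomes. On chromosome 5 it was 59.7% against 35.6%, and on chromosome 19 it was 20.1% against 61.0%. At equal list length 79.4% of SG-A zone regions were listed again, and when both lists were limited to a −log10 q of 5 or more, 13.6% of pacSC zone regions were newly listed. Shares outside the zone were not computed at these settings.

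The SG-A zone regions of highest signal value that pacSC did not list again were chr12:12945205-12949984 (12021), chr19:12084459-12087428 (10022) and chr19:9062922-9065573 (9306). PriSG-A held all 3 as well, and the nearest pacSC regions were 33403, 3599 and 20920 bp away. The strongest newly listed pacSC regions were chr4:5558990-5560244 (2714), chr1:4342056-4342991 (2585) and chr15:4847725-4849017 (2356). Each was listed in pacSC alone, with the nearest SG-A region 10083, 5778 and 49371 bp away. All 3 lay within 3 Mb of the zone start, at 2.56, 1.34 and 1.71 Mb.

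From pacSC to rST fewer zone regions were listed again than elsewhere. They were 224 of 3153 pacSC zone regions, or 7.10% (6.26 to 8.05), against 14.2% over all autosomes and 14.9% (14.5 to 15.3) outside the zone. The share was 12.5% against 25.5% above the median −log10 q and 1.31% against 4.29% below it. It was below that of the rest on 18 of 19 chromosomes and highest on chromosome 18, at 15.0%. Of 297 rST zone regions 13 were newly listed, or 4.38% (2.58 to 7.34), against 12.1% over all autosomes. With lists of equal length 22.2% were listed again and 23.2% newly listed. Where each region had to cover 50% of the other, 1.93% were listed again and 79.5% newly listed. For these settings too the shares are of the zone alone, and the difference from the rest was not tested.

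The pacSC zone regions of highest signal value without an rST counterpart were chr19:4396464-4398755 (6915), chr19:3767316-3769337 (5586) and chr7:5012403-5014444 (5504). All 3 were in both spermatogonial lists. The 13 rST zone regions newly listed had a median −log10 q of 2.01, against 2.38 for the other rST zone regions. The strongest were chr15:7751353-7752601 (537), chr18:12610852-12611568 (462) and chr15:12932850-12933907 (307), where the median signal value of rST zone regions was 85.6. Each was in rST alone, with pacSC regions no nearer than 2212, 17240 and 29955 bp.

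The very wide peaks, of at least 5000 bp within 1 Mb of the zone start, formed 5 loci on chromosomes 9 and 11. No other zone region reached that width, and the next widest had 4528, 4939, 3929 and 4657 bp in stage order. The rST one, on chromosome 11, is itself a piece of 1 of these loci. On the rest of the autosomes 14, 32, 2 and 2 peaks were at least 5000 bp wide. Near the zone start PriSG-A and SG-A had 5 very wide peaks each, pacSC 6 and rST 7. They made up 26.1, 18.2, 27.6 and 59.5% of the summed signal value of the zone. Each locus was held by all 4 lists, which covered 91.3 to 100% of it. The repeat content and the number of genomic copies of these loci were not analysed here, and reads of repeated sequence can pile up on a single assembled copy.

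The widest locus was chr9:3005573-3038390, 32818 bp. PriSG-A listed it as 1 peak of 32793 bp with a signal value of 467592, and SG-A as 1 peak of 32818 bp with 674718, each first of its whole list. In pacSC it fell into 4 regions, the widest of 17766 bp with 162294, and in rST into 14, the widest of 7470 bp with 41713. Beside it, at 2999936 to 3005447, the locus with the lowest listed position had 1 peak in every list, of 5512, 5469, 5441 and 5197 bp. Of the 5 loci it had the highest signal value per bp in every list, at 19.8, 28.9, 13.1 and 9.27.

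On chromosome 11, the locus at 3026823 to 3048932 was 1 peak at every stage, with widths of 22031, 22068, 21976 and 21826 bp in stage order. It took ranks 5, 5, 4 and 2 by signal value in those lists, with 62221 in rST. The loci at 3052095 to 3080456 and 3080577 to 3100118 were 1 peak each in the first 3 lists, and 6 and 5 regions in rST. The rST list thus broke 3 of the 5 loci into pieces. Regions inside the 5 loci account for 27 rST zone regions, and without them the rST ratio of zone to rest was 0.533 (0.471 to 0.602).

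**Figure D5:**
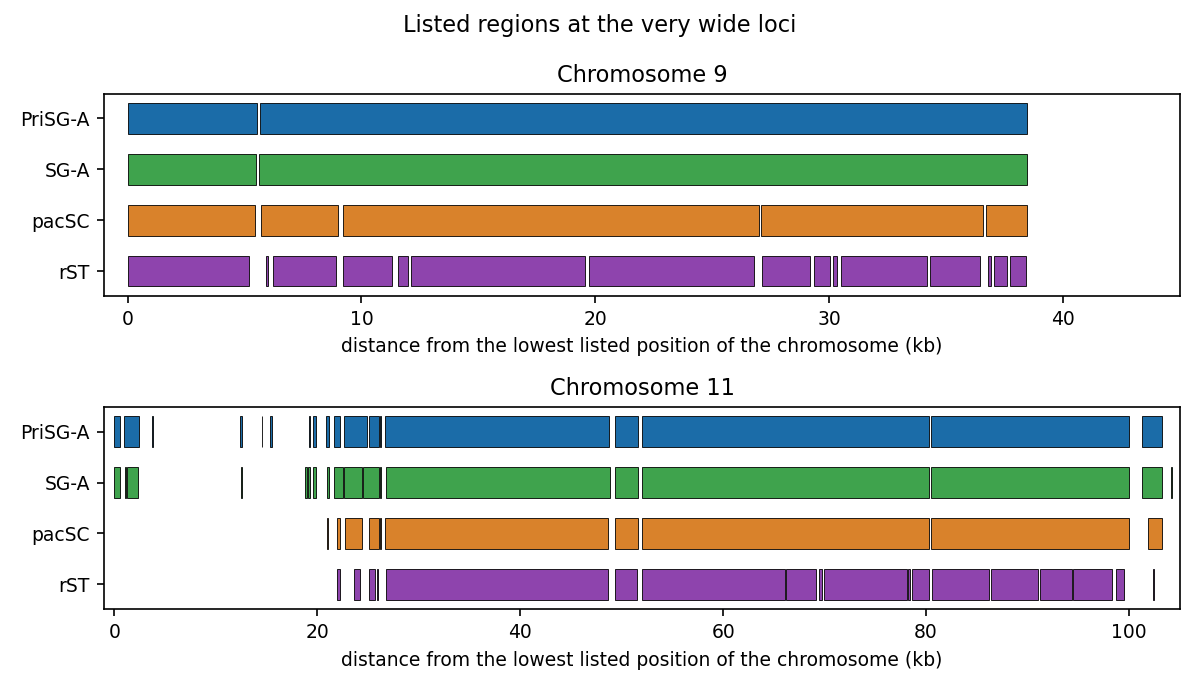
Listed regions, drawn to scale as bars, at the start of chromosome 9 and the start of chromosome 11, by stage. The spermatogonial lists hold the 32818 bp locus of chromosome 9 as 1 bar, pacSC as 4 and rST as 14.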

How the data were processed

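The data were 4 ATAC-seq peak lists deposited by the authors. The labels name the same list for every replicate of a stage, and how replicates were combined is not stated. The PriSG-A list was taken to be the one whose file name holds that label with extra text inserted, the other 3 carrying the other stages' labels. Bowtie2 2.2.5, Bowtie and SAMtools appear in the submitters' processing notes with no role. Peak caller, settings, Tn5 shift and read depth were not given in the sources used here. Of the deposited columns, the score, the signal value, the −log10 q and the summit offset were read. Recomputed here, the deposited score was 1000 times signal value over width, capped at 1000, for 100% of peaks to within 1.

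Overlap between lists needed 1 bp. Densities are regions per Mb of listed span with 95% Poisson intervals, and shares have 95% Wilson intervals. Both cover counting error only. With 1 list a stage, no p-value was computed. Python 3.11.15, numpy 2.4.6 and pandas 2.3.3 were used, and the steps were tested on simulated data.

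A zone's positions were held to coincide with the gene table where 50% or more of SG-A summits with a −log10 q of 5 or more lay within 1000 bp of a gene start, at 10 times or more the shifted share. Chromosome 18 has no entry in that table. The description by gene was added after the data were seen. The plan named regions and bins only, and genes only given a table of the files' build, which the 4 zones met and the lists as a whole did not.

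Named regions were the very wide loci, per stage the 3 other zone regions of highest signal value, and per transition the 3 strongest newly listed and the 3 strongest not listed again. Named bins were the 3 fullest per stage and the 5 of highest pacSC share among those with 20 or more pacSC regions. Genes, motifs and gene families were picked after their values were seen. The members and lists were chosen with earlier results of these data known.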

Additional observations from a re-analysis of the deposited data

How the results depend on the processing

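Of 74 alternative values, 23 stayed within the interval of the reported value (counts within 1.5 times), 46 moved beyond it and 5 reversed; the cause was not tested. Density ratios of zone to rest in PriSG-A, SG-A, pacSC and rST were 1.53, 0.962, 2.09 and 2.60 among regions whose −log10 q was 5 or more, and 1.58, 1.17, 1.55 and 0.660 with a zone of 5 Mb. With a zone of 20 Mb they were 1.31, 0.935, 1.04 and 0.920, and without the first 1 Mb 1.23, 0.970, 1.17 and 0.476. With lists of equal length they were 1.41, 1.11 and 1.62 in the first 3, and with 100 kb windows counted once 1.13, 1.06 and 1.11. Without chromosome 19 they were 1.29 in PriSG-A and 0.962 in SG-A. Leaving out the very wide loci with all their pieces, chosen after the data were seen, gave 1.35, 1.03, 1.24 and 0.533. In PriSG-A and SG-A that setting repeats leaving out the very wide peaks alone. The rST ratio with lists of equal length could not change, since rST is the shortest list. Such values are among the 23. The 4 values below 1 in SG-A and the 2.60 in rST are the reversals, called by the value and not by its interval. The SG-A value for a −log10 q of 5 or more had an interval of 0.906 to 1.02, which includes 1.

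When both lists were limited to a −log10 q of 5 or more, shares listed again were 98.3% of PriSG-A, 38.6% of SG-A and 3.92% of pacSC, and newly listed shares 50.8% of SG-A and 13.6% of pacSC. At equal length they were 73.5, 79.4 and 22.2%, and 13.03, 41.9 and 23.2%. With a reciprocal overlap of 50% they were 31.0, 10.2 and 1.93%, and 74.8, 77.6 and 79.5%. With a zone of 5 Mb, 23.2% of SG-A was listed again, and 50.7% of SG-A and 2.44% of rST newly listed. Without chromosome 19, an alternative added after the data were seen, 61.2% of PriSG-A was listed again and 49.8% of pacSC newly listed. All these shares are of zone regions, and the rest of the autosomes was not computed at these settings. Peaks of at least 2000 bp within 1 Mb of the start numbered 30, 42, 14 and 17. Gene starts in pacSC alone numbered 14 at equal length and 5 within 1000 bp of the start, both alternatives added after the data were seen.

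No paired analysis was possible because the replicates of a stage share a single list, and for the same reason no library was left out in turn. Depth is unknown, which limits what list lengths can show.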
